A study of Mus musculus with 9 samples.

Results

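Solute carriers are the membrane proteins that move sugars, amino acids, ions, metals, nucleotides and metabolites into and out of cells and their organelles. The genes described here were all those whose symbol starts with Slc and a family number in the table of PA/OA and control cells, 90 of its 6213 genes, leaving out 1 symbol. They fell into 31 families. The mitochondrial Slc25 family held 23 of them and the other families 67. Of the 90 symbols, 3 (Slc7a6os, Slc9a3r1 and Slc9a3r2) are named for a carrier and are not carriers themselves.

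RNA was measured by sequencing in AML12, a line of mouse hepatocytes, in 3 groups of 3 samples. Control cells were untreated. PA/OA cells were exposed for 24 h to 0.2 mM PA with 0.4 mM OA, which loads them with lipid. Ang(1-7) cells received 100 nM Ang(1-7) 30 min before the same exposure. PA and OA are the usual short names of palmitic and oleic acid, and Ang(1-7) is a short peptide of the angiotensin system. No group received only the solvent or carrier of the fatty acids, or Ang(1-7) alone. Nothing in the labels states that replicates were grown as separate cultures, and the p-values then cover only the spread among the libraries, part of which may be technical.

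Liver cells take up glucose, amino acids and fatty acids, export bile acids and store metals, and carriers stand at each of these steps. In the inner membrane of mitochondria, Slc25 carriers exchange ADP for ATP and pass phosphate, citrate, dicarboxylates, amino acids and iron between the matrix and the cytosol. Several plasma membrane carriers act as pairs, in which a shared heavy chain such as Slc3a2 brings a light chain such as Slc7a5 to the cell surface.

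The libraries held 24588312 to 28704499 counts. Library Ang(1-7) 2 stood apart from its group. Its counts differed from those of the other Ang(1-7) libraries with a chi-square of 154 to 250 per degree of freedom, against 15.7 to 33.99 in all other pairs within a group. Solute carrier genes made up 0.797% of its counts and 0.996% to 1.06% of the counts of the other libraries. Nervous system markers also differed. Of 20 such markers 11 were listed in the table of both fatty acid groups. All 11 were above 0 in Ang(1-7) 2 and 3, against 2 or 3 of them in the other 4 libraries. Listed transcripts had a mean count of at least 5.17 there. A marker at 0 in the other 4 libraries could thus be listed only through its counts in Ang(1-7) 2 and 3. That all 11 were above 0 in both follows in part from this. The summed level of the 11 markers was 230 CPM (a count divided by the library total and rescaled) in Ang(1-7) 2. It was 204 in Ang(1-7) 3, against 126 to 137 in the others. Mbp gave most of the sum in the other libraries, and Nefl had 923 and 477 counts in Ang(1-7) 2 and 3 and 0 in the other 4. The part of this in the results below was not tested, and values without Ang(1-7) 2, or without both, stand beside the main results with Ang(1-7). Without both, the only Ang(1-7) library left is Ang(1-7) 1. No spread within that group then enters, and groups are more easily without overlap. Of 20 hepatocyte markers 9 were listed in the tables with controls. Their sum of 22534 to 23953 CPM in the control and PA/OA libraries came mostly from Krt8 and Krt18. Albumin (Alb) had 80 to 325 counts there, and Apoa1, Fgb, Cps1 and Cyp2e1 were among the markers not listed.

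In PA/OA cells, Slc25a4 fell and Slc20a1 rose, and none of the other 88 solute carrier genes passed the test. A gene was called where edgeR's quasi-likelihood test gave an adjusted p under 0.05. That made 2 of 90 members, 1 in each direction, against 5.05% of all genes tested (2.82% higher and 2.24% lower). At an unadjusted p under 0.05 there were 15 members, 6 higher and 9 lower, which is 16.7% against 19.4% of all genes. The 3 control and 3 PA/OA libraries did not overlap in 16 members (9 higher and 7 lower), which is 17.8% against 23.8% of all genes. The median log2 change of the members was 0.02, that of all genes was 0.01, and the members ranged from -1.03 to 1.06. With DESeq2, 4 members were called, against 8.64% of all genes: Slc25a4 and Slc20a1 again and, both higher, Slc35e3 and Slc48a1. A lower level in bulk RNA can come from fewer cells of a kind or from less RNA per cell, and these cannot be told apart here.

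**Figure D1:**
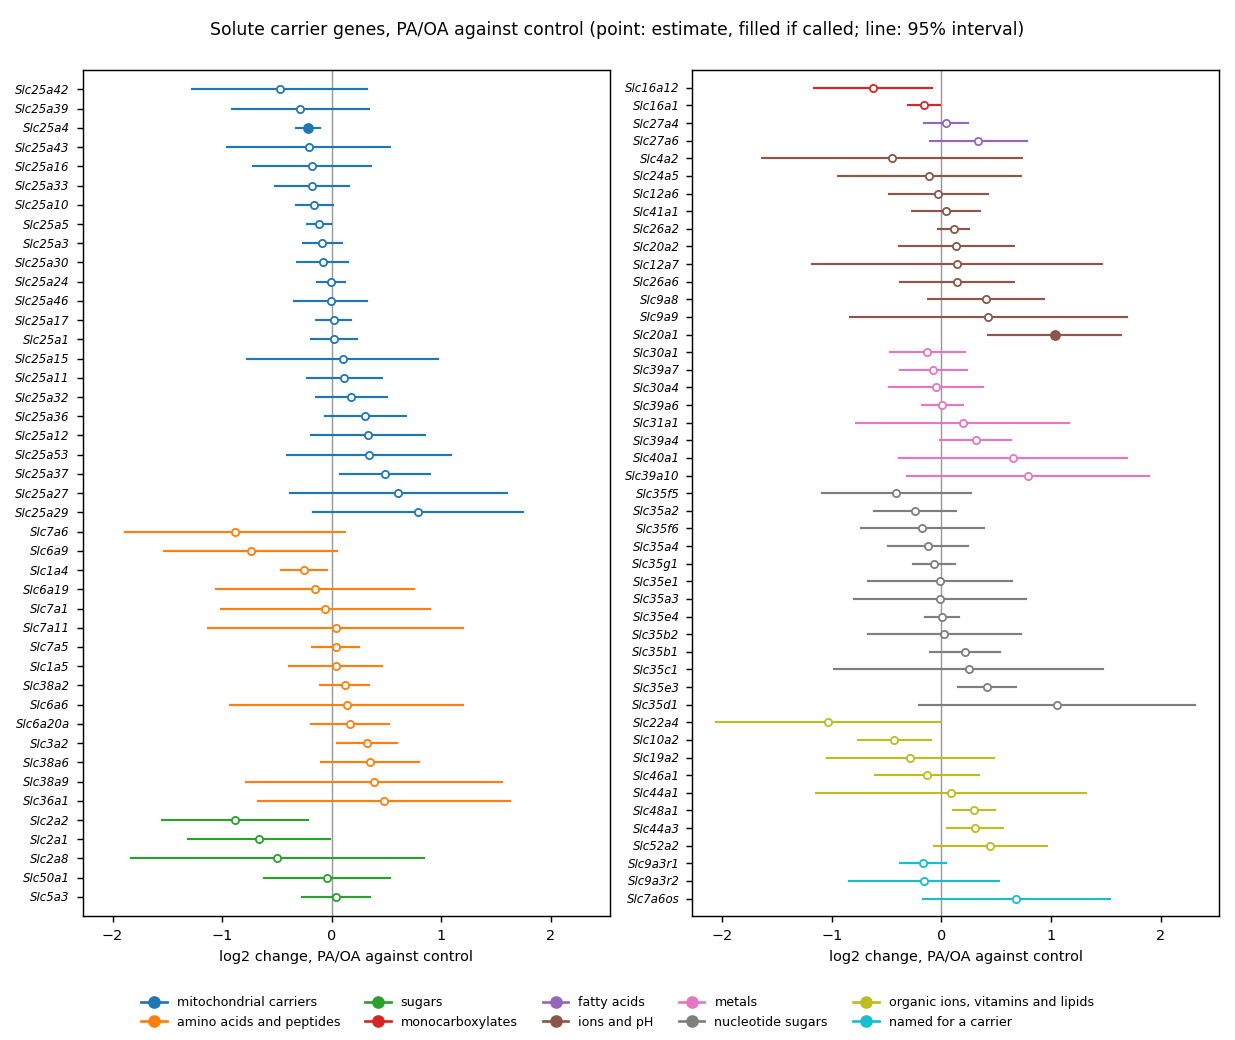
Log2 change of each of the 90 solute carrier genes in PA/OA against control cells (x axis; points are edgeR estimates from 3 libraries a group, lines are 95% intervals, colours are classes by family). Filled points mark the called genes, Slc25a4 at -0.21 and Slc20a1 at 1.03; the intervals of most other genes include 0.

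Of the 23 members of the Slc25 family, classed as mitochondrial carriers by family number alone, 1 fell and none rose. That is 4.35% called against 5.05% of all genes. Slc25a4 encodes an adenine nucleotide translocator, which exchanges ADP for ATP across the inner membrane. It was measured at 2405, 2218 and 2327 CPM in the control libraries and at 2055, 1967 and 1966 CPM in the PA/OA libraries. Every PA/OA library lay below every control library. The mean went from 2317 ± 94.2 to 1996 ± 51.3 CPM (SD, n = 3 each), 0.862 times the control level, a log2 change of -0.21 (SE 0.05, edgeR adjusted p = 0.0204). Leaving out control 1 or 3, or PA/OA 2 or 3, ended the call (adjusted p = 0.0814 to 0.133 in edgeR), as did a fit of all 9 samples (adjusted p = 0.615 in edgeR). With 1 library left out the log2 change was -0.25 to -0.19, and DESeq2 gave an adjusted p of 0.00390.

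Slc25a5, the other adenine nucleotide translocator abundant in these counts, was at 2786, 2694 and 2598 CPM in controls and at 2397, 2471 and 2571 CPM in PA/OA cells. The groups did not overlap, yet the log2 change of -0.12 (95% interval -0.23 to -0.01) had an adjusted p of 0.205 in edgeR. Together, both translocators took 46.7% to 48.5% of the solute carrier counts in control libraries and 44.4% to 44.7% in PA/OA libraries.

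The carriers that link mitochondria to lipid and glucose synthesis did not pass the test. Slc25a1, which exports citrate, went from 118 ± 4.80 to 120 ± 12.8 CPM, a log2 change of 0.02 with an interval of -0.18 to 0.23. Slc25a10, the dicarboxylate carrier, went from 287 ± 18.98 to 258 ± 20.6 CPM (log2 change -0.16, interval -0.33 to 0.01). Slc25a11, which exchanges oxoglutarate for malate, had a log2 change of 0.12 (interval -0.22 to 0.45). Slc25a3, the phosphate carrier, had one of -0.08 (interval -0.27 to 0.10). Slc25a12, an aspartate and glutamate carrier, had 0.33 (interval -0.19 to 0.85), and Slc25a39, needed for glutathione in mitochondria, had -0.29 (interval -0.91 to 0.34).

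Slc25a37, mitoferrin 1, which brings iron into mitochondria, is named here after its values were seen. It was at 14.2, 17.3 and 19.7 CPM in controls and at 26.04, 21.4 and 24.3 CPM in PA/OA cells. Its groups did not overlap, and its log2 change of 0.49 (interval 0.07 to 0.90) had an adjusted p of 0.175 in edgeR; only a predicted transcript of it was listed. Across the family, 11 estimates were above 0 and 12 below, with a median log2 change of -0.01 and a range of -0.47 to 0.79.

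Among the 11 carriers of ions and pH, 1 rose and none fell, which is 9.09% called against 5.05% of all genes. Slc20a1 encodes PiT-1, which takes up phosphate with sodium. It was at 12.3, 10.99 and 4.599 CPM in controls and at 21.4, 17.97 and 17.6 CPM in PA/OA cells. All PA/OA libraries were above all controls, and control 3 was the lowest library by far. The mean went from 9.28 ± 4.10 to 18.98 ± 2.07 CPM, 2.04-fold, a log2 change of 1.03 (SE 0.29, edgeR adjusted p = 0.0449). That call was lost when any 1 of the 6 libraries was left out (edgeR adjusted p = 0.0654 to 0.118), and without control 3 the log2 change was 0.71. It was also lost in the fit of all 9 samples (edgeR adjusted p = 0.319), and DESeq2 gave an adjusted p of 0.0157. The count rests on 1 predicted transcript, so Slc20a1 has no value among curated transcripts.

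The more abundant carriers of this class did not pass. Slc26a2, a sulfate carrier, was at 531 ± 6.41 CPM in controls and 574 ± 45.7 in PA/OA cells; the groups did not overlap and the log2 change was 0.11 (interval -0.03 to 0.25). Slc41a1, a magnesium carrier, had a log2 change of 0.04 (interval -0.27 to 0.35). The class had a median log2 change of 0.14.

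**Figure D2:**
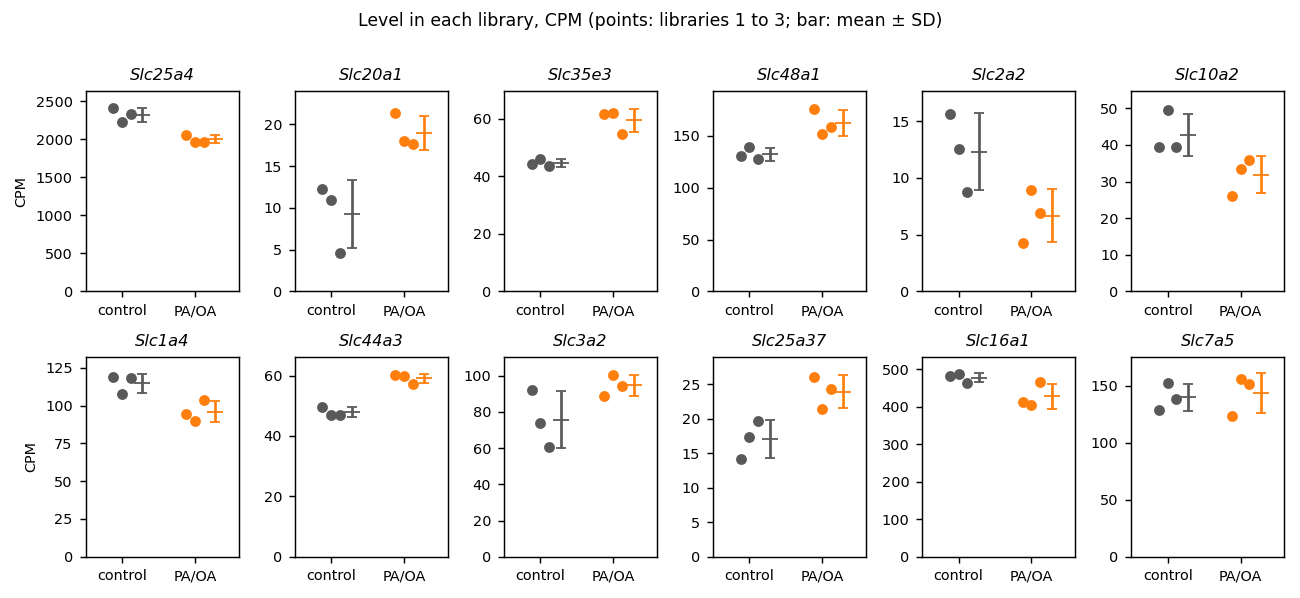
Level in CPM (y axes, from 0) of 12 solute carrier genes in the control and PA/OA libraries; points are libraries 1 to 3 from left to right and bars are the mean ± SD. Slc25a4 and Slc20a1, the called genes, do not overlap between groups. Nor do Slc35e3, Slc48a1, Slc10a2, Slc1a4, Slc44a3 and Slc25a37, which were not called by edgeR. The Slc7a5 libraries lie among each other. The 12 genes are a selection, and over all 90 members the groups did not overlap in 16.

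None of the 15 carriers of amino acids and peptides was called by edgeR or by DESeq2, 2 (13.3%, against 19.4% of all genes) had an unadjusted p under 0.05 in edgeR, and 3 (20% against 23.8%) did not overlap between groups. Slc1a4, which exchanges small neutral amino acids, was at 119, 108 and 118 CPM in controls and at 94.8, 89.95 and 104 CPM in PA/OA cells. All PA/OA libraries were below all controls. Its log2 change was -0.26 (interval -0.47 to -0.05, adjusted p = 0.153 in edgeR). Slc1a5, the related glutamine carrier, was at 22.8 ± 4.72 and 23.3 ± 4.32 CPM (log2 change 0.04, interval -0.39 to 0.46).

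The heavy chain Slc3a2 was at 92.3, 74.0 and 60.8 CPM in controls and at 89.1, 100.4 and 94.5 CPM in PA/OA cells. PA/OA 1 lay within the range of the controls. Its log2 change was 0.32 (interval 0.05 to 0.60, adjusted p = 0.169 in edgeR), over 4 listed transcripts. Its light chain Slc7a5, which carries large neutral amino acids, was at 140 ± 11.9 and 144 ± 17.3 CPM (log2 change 0.04, interval -0.18 to 0.25). Slc7a6, another light chain, went from 3.65 ± 0.0630 to 1.98 ± 0.541 CPM; its groups did not overlap and the log2 change was -0.88 (interval -1.88 to 0.12).

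Slc7a11, the cystine and glutamate exchanger, had a wide interval of -1.13 to 1.198 around a log2 change of 0.04, and control 3 had 0.920 CPM against 4.58 and 5.81 in the other controls. Slc7a1, which takes up cationic amino acids, had an interval of -1.01 to 0.89. Slc38a2, a carrier of small neutral amino acids that starved cells induce, was at 82.99 ± 0.799 and 89.97 ± 7.06 CPM, with groups that did not overlap and a log2 change of 0.12 (interval -0.10 to 0.34).

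None of the 5 sugar carriers was called by edgeR or DESeq2, and 2 (40%, against 19.4% of all genes) had an unadjusted p under 0.05 in edgeR. Slc2a2 encodes GLUT2, the glucose carrier typical of hepatocytes. It was at 15.6, 12.6 and 8.78 CPM in controls and at 4.25, 8.89 and 6.91 CPM in PA/OA cells. The highest PA/OA library was just above the lowest control. The log2 change was -0.88 (interval -1.55 to -0.21, adjusted p = 0.121 in edgeR). Slc2a1, the widespread glucose carrier GLUT1, was at 12.03, 8.61 and 24.2 CPM in controls and at 9.78, 9.79 and 8.73 CPM in PA/OA cells. Control 3 was far above the other controls, and the log2 change of -0.66 (interval -1.31 to -0.01) had an adjusted p of 0.247 in edgeR. Slc5a3, which takes up myo-inositol, and Slc50a1, a glucose carrier of the SWEET family, had log2 changes of 0.04 and -0.04, with intervals of -0.27 to 0.35 and -0.62 to 0.53.

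Both monocarboxylate carriers had lower estimates without being called. Slc16a1, MCT1, which carries lactate, pyruvate and ketone bodies, was at 482, 487 and 463 CPM in controls and at 413, 405 and 466 CPM in PA/OA cells. PA/OA 3 lay among the controls. Its log2 change was -0.16 (interval -0.31 to -0.01, adjusted p = 0.225 in edgeR). Slc16a12, a creatine carrier with 1 predicted transcript, went from 15.9 ± 2.46 to 10.3 ± 2.75 CPM, with no overlap and a log2 change of -0.63 (interval -1.17 to -0.09).

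The fatty acid transport proteins were 2, Slc27a4 and Slc27a6, and neither was called or had an unadjusted p under 0.05. Slc27a4, which activates long-chain fatty acids as they are taken up, was at 119, 118 and 112 CPM in controls and at 127, 110 and 121 CPM in PA/OA cells. The groups overlapped, and the log2 change of 0.04 had an interval of -0.16 to 0.24. Slc27a6 was at 15.5 ± 2.87 and 19.5 ± 0.284 CPM (log2 change 0.34, interval -0.11 to 0.78), and its groups did not overlap.

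Metals, nucleotide sugars and small organic molecules completed the set. None of the 8 metal carriers was called by edgeR or DESeq2, had an unadjusted p under 0.05 in edgeR or had groups without overlap. The iron exporter Slc40a1 was at 1.89, 5.999 and 2.30 CPM in controls and at 6.30, 6.94 and 2.79 CPM in PA/OA cells, too spread to place its log2 change of 0.65 (interval -0.39 to 1.69). The zinc carriers Slc39a6 and Slc39a7 had log2 changes of 0.01 and -0.07 (intervals -0.18 to 0.19 and -0.38 to 0.23). Of the 13 members of family 35, named for nucleotide sugar transport, Slc35e3 came nearest to the threshold. It was at 44.4, 45.98 and 43.5 CPM in controls and at 61.6, 61.9 and 54.9 CPM in PA/OA cells. The groups were well apart. The log2 change was 0.41 (SE 0.13), with an adjusted p of 0.0622 in edgeR, 0.0146 in DESeq2 and 0.04996 in edgeR on curated transcripts alone, up to 0.325 in the fit of all 9 samples. Slc35e4 and Slc35g1, the family members with the most counts, had log2 changes of 0.01 and -0.07 (intervals -0.15 to 0.16 and -0.26 to 0.12).

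In the class of organic ions, vitamins and lipids, 4 of 8 members had an unadjusted p under 0.05 in edgeR, 2 in each direction. That is 50% against 19.4% of all genes, and none was called by edgeR. Slc48a1, which carries heme, was at 130.4, 139 and 127 CPM in controls and at 176, 152 and 159 CPM in PA/OA cells. The groups did not overlap; the log2 change was 0.30 (SE 0.09), with an adjusted p of 0.0656 in edgeR, 0.0226 in DESeq2 and 0.656 in the fit of all 9 samples. Slc44a3, of the choline transporter-like family, went from 47.9 ± 1.599 to 59.1 ± 1.57 CPM (log2 change 0.30, interval 0.05 to 0.56). Chosen after their values were seen, Slc10a2, a bile acid carrier best known from the ileum, went from 42.8 ± 5.76 to 31.8 ± 5.04 CPM (log2 change -0.43, interval -0.77 to -0.09), and Slc22a4, a carrier of ergothioneine, had a log2 change of -1.03 (interval -2.06 to -0.01) at 1.74 to 8.05 CPM.

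How small a change could be seen differed with the counts. The 32 members with a mean count up to 200 had a median SE of 0.47 on the log2 scale, the 29 of 200 to 1000 had 0.23, and the 29 above 1000 had 0.10. Of each upper range 1 member was called, and of the lowest none by edgeR or DESeq2, although its estimates ran from -1.03 (Slc22a4) to 1.06 (Slc35d1). Among all genes, 0.340%, 2.75% and 9.90% were called in these ranges.

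**Figure D3:**
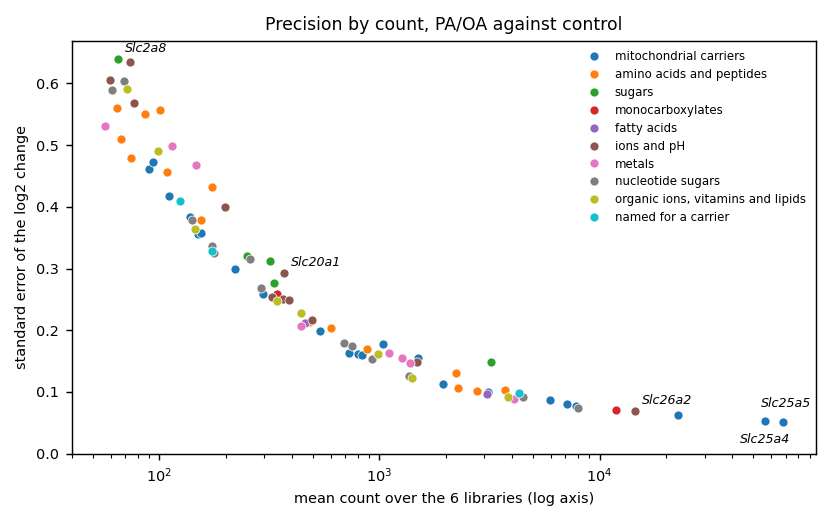
Standard error of the log2 change (y axis) against the mean count over the 6 control and PA/OA libraries (x axis, log scale), 1 point a gene, coloured by class. The error falls from 0.64 for the sugar carrier Slc2a8 to 0.05 for Slc25a4 and Slc25a5.

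Genes outside the Slc symbols with related roles were counted in the same comparison. Of 48 other membrane transporters (ABC pumps, organic anion polypeptides and ion pumps) 16 were listed, 1 rose and none fell, which is 6.25% against 2.82% of all genes higher and 5.05% called in either direction. Slco3a1, an organic anion carrier, went from 116 ± 13.2 to 156 ± 10.6 CPM (log2 change 0.42, edgeR adjusted p = 0.0168). Of 27 genes for mitochondrial protein import, pores and pyruvate entry 22 were listed, 2 fell and none rose, which is 9.09% against 2.24% of all genes lower. Tomm22, a receptor of the outer membrane, had a log2 change of -0.32 (edgeR adjusted p = 0.00699). Timm8b, a chaperone of the space between the membranes, had one of -0.31 (edgeR adjusted p = 0.0429). The median log2 change of these 22 genes was -0.24. Their groups did not overlap in 13, all lower, which is 59.1% against 11.6% of all genes lower without overlap. These shares are not matched for count. Tomm22 and Timm8b had mean counts of 11569 and 4077. Of the 2596 genes above 1000 counts, 9.90% were called in either direction, and 879 had groups without overlap. Whether the 22 genes differ from the Slc25 family was not tested.

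Ang(1-7) given before the fatty acids was compared with the fatty acids alone for all 90 genes. None was called by edgeR or by DESeq2. Of the 9261 genes tested, edgeR called 0%, and DESeq2 called 0.0487% of all genes. At an unadjusted p under 0.05 edgeR gave 1 member, against 2.55% of all genes, and DESeq2 gave 2. The groups did not overlap in 7 members, 2 higher and 5 lower, which is 7.78% against 11% of all genes (6.37% lower and 4.6% higher). The members' median log2 change was -0.08 and that of all genes -0.01, with 59 estimates below 0 and 31 above. Without Ang(1-7) 2, 46 estimates were below 0 and 44 above, with a median of -0.01, and 10 members did not overlap (11.1% against 20.2% of all genes). Without Ang(1-7) 2 and 3 it was 59 and 31 again, with a median of -0.07, and 31 members did not overlap (34.4% against 42.8%).

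The members of lowest p were mitochondrial. Slc25a43 was at 5.44, 5.996 and 5.06 CPM in PA/OA cells and at 5.12, 16.6 and 10.4 CPM in Ang(1-7) cells. Ang(1-7) 2 and 3 were high and Ang(1-7) 1 was within the PA/OA range. Its log2 change was 0.96 (interval 0.03 to 1.89, adjusted p = 0.965 in edgeR), 0.51 without Ang(1-7) 2 and -0.09 without Ang(1-7) 2 and 3. Slc25a12 was at 20.7, 38.2 and 16.7 CPM in Ang(1-7) cells, and its log2 change of 0.72 became 0.30 without Ang(1-7) 2. Slc25a46, a protein of mitochondrial fusion and fission, was at 31.5, 14.8 and 20.5 CPM, and its log2 change of -0.56 became -0.33 without Ang(1-7) 2 and -0.05 without both libraries.

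Both genes called in PA/OA against control were followed here. Slc25a4 was at 2066, 1952 and 1971 CPM in PA/OA cells and at 1898, 1373 and 1901 CPM in Ang(1-7) cells. Ang(1-7) 2 was far below the rest. The log2 change was -0.21 (interval -0.52 to 0.10) and -0.06 without Ang(1-7) 2. Slc20a1, with a curated transcript listed as well in this table, went from 20.5 ± 2.17 to 17.6 ± 0.452 CPM (log2 change -0.23, interval -0.68 to 0.23), with -0.21 without Ang(1-7) 2 and -0.25 without Ang(1-7) 2 and 3.

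Library Ang(1-7) 2 set several other values, named here after they were seen. Slc39a7 was at 9.15 CPM there and at 44.8 and 50.5 CPM in the other Ang(1-7) libraries, and its log2 change of -0.56 became -0.09 without it. Slc38a2 was at 159 CPM there, against 88.1 and 92.4, and its log2 change went from 0.30 to -0.01. Slc35e4 was at 148 CPM there, against 301 and 259, and its log2 change went from -0.38 to -0.12. For Slc25a5 the log2 change went from -0.14 to 0.03.

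**Figure D4:**
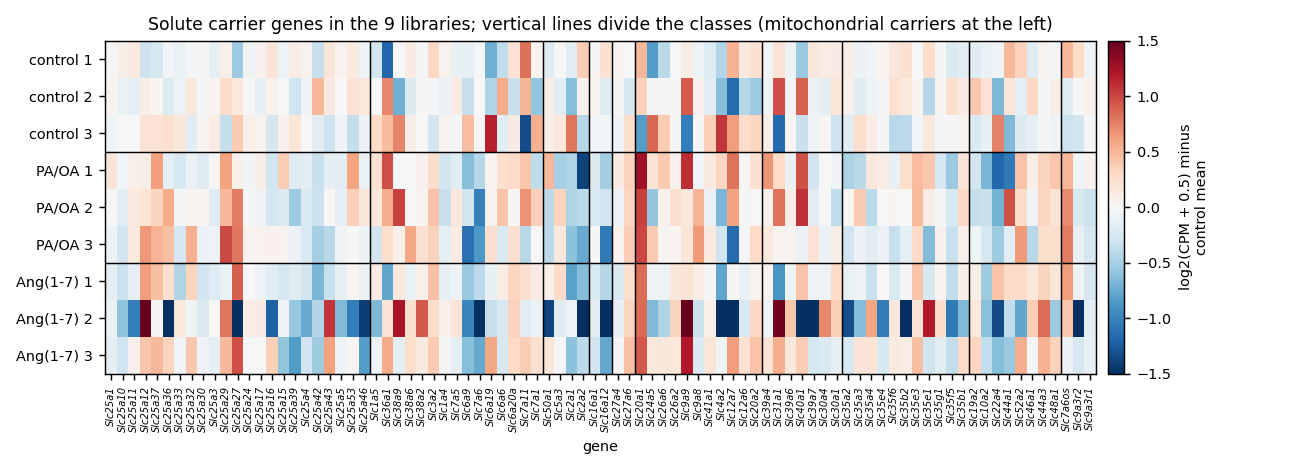
Level of 86 solute carrier genes in each of the 9 libraries, as log2(CPM + 0.5) minus the mean of the controls (colour, which ends at -1.5 and 1.5), from transcripts listed in all 3 tables; columns are genes and rows are libraries. The row of Ang(1-7) 2 holds most of the strongest colours in both directions.

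Against untreated controls, 86 of the 90 genes were listed for Ang(1-7) cells; Slc2a8, Slc35c1, Slc35d1 and Slc39a10 were not. This comparison shares its control samples with PA/OA against control. Ang(1-7) cells also received the fatty acids, so the peptide and the fatty acids cannot be told apart in it. None of the 86 was called by edgeR or by DESeq2, which called 0.245% and 3.79% of all genes. At an unadjusted p under 0.05 there were 8 members, 3 higher and 5 lower, against 14.9% of all genes in edgeR, and 12 in DESeq2. The groups did not overlap in 22 members, 7 higher and 15 lower, which is 25.6% against 26.5% of all genes. The Slc25 family had 9 of them, 8 lower and 1 higher, against 13.3% lower and 13.2% higher among all genes. Its median log2 change was -0.13, against 0.02 for all genes. Without Ang(1-7) 2 it had 9 lower and 4 higher without overlap, against 20.8% of all genes lower, and a median of -0.05. Without Ang(1-7) 2 and 3 it had 11 lower and 4 higher, against 28.5% of all genes lower, and a median of -0.15. Over all members, 28 did not overlap without Ang(1-7) 2 (32.6% against 41.3% of all genes), and 41 without both (47.7% against 58.3%).

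Without Ang(1-7) 2, edgeR called 5 members, against 10.2% of all genes: Slc25a4, Slc25a10 and Slc16a1 lower and Slc35e3 and Slc44a3 higher. Without Ang(1-7) 2 and 3 it called 1, Slc25a4, against 3.73% of all genes. Slc25a4 was at 2396, 2210 and 2320 CPM in controls and at 1895, 1338 and 1883 CPM in Ang(1-7) cells. All 3 Ang(1-7) libraries were below all controls. The log2 change was -0.44 (SE 0.14, adjusted p = 0.221 in edgeR), and -0.29 without Ang(1-7) 2 (adjusted p = 0.00201 in edgeR).

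Slc25a10 was at 304.7, 267 and 288 CPM in controls and at 227, 185 and 231 CPM in Ang(1-7) cells, again without overlap. Its log2 change was -0.42 (SE 0.12, adjusted p = 0.183 in edgeR), and -0.33 without Ang(1-7) 2 (adjusted p = 0.0158 in edgeR). The lactate carrier Slc16a1 was at 480, 485 and 462 CPM in controls and at 404, 415 and 387 CPM in Ang(1-7) cells. Ang(1-7) 2 was the highest library of its group and still below every control. The log2 change was -0.24 (adjusted p = 0.274 in edgeR), and -0.27 without that library (adjusted p = 0.0189 in edgeR).

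Slc44a3 was at 49.5, 46.9 and 46.7 CPM in controls and at 60.0, 83.8 and 68.6 CPM in Ang(1-7) cells. Its log2 change of 0.57 (adjusted p = 0.173 in edgeR) became 0.43 without Ang(1-7) 2 (adjusted p = 0.0493 in edgeR). Slc35e3 was at 44.2, 45.8 and 43.4 CPM in controls and at 59.6, 49.99 and 60.9 CPM in Ang(1-7) cells. Its log2 change of 0.35 (adjusted p = 0.304 in edgeR) became 0.44 (adjusted p = 0.0443 in edgeR). For both genes, every Ang(1-7) library was above every control. Over all alternatives, the edgeR or DESeq2 adjusted p ran from 0.00201 to 0.564 for Slc25a4, from 0.0158 to 0.541 for Slc25a10, from 0.0189 to 0.581 for Slc16a1, from 0.0493 to 0.524 for Slc44a3 and from 0.0443 to 0.591 for Slc35e3.

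Genes not called in either form of this comparison included Slc25a12, with a log2 change of 1.01 (interval 0.18 to 1.83) that became 0.52 without Ang(1-7) 2. Slc20a1 went from 9.25 ± 4.09 to 15.9 ± 0.604 CPM (log2 change 0.78, interval -0.06 to 1.61), with 0.80 without that library. Slc10a2 had a log2 change of -0.54 (interval -0.94 to -0.13), and -0.47 without it. Slc16a12 had one of -0.93 (interval -1.76 to -0.10), and -0.63 without it. Slc25a5 had -0.27 (interval -0.63 to 0.08), and -0.10 without Ang(1-7) 2. In both comparisons with Ang(1-7), edgeR called none of the other membrane transporters or the genes of mitochondrial import and pyruvate entry. Against control, 3 of 16 (18.75%) and 8 of 22 (36.4%) had an unadjusted p under 0.05 in edgeR, against 14.9% of all genes. Against PA/OA none had, against 2.55% of all genes. For these lists no values without Ang(1-7) 2 are given.

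**Figure D5:**
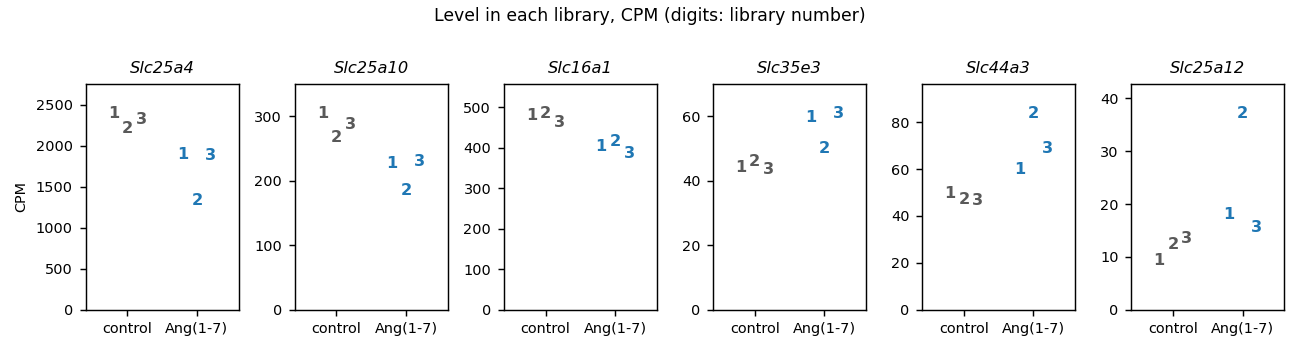
Level in CPM (y axes, from 0) of 6 solute carrier genes in control cells and in Ang(1-7) cells, which also received the fatty acids. Each digit is the number of 1 library. Library 2 of the Ang(1-7) group is lowest for Slc25a4 and Slc25a10 and highest for Slc44a3 and Slc25a12, and no gene shown has overlapping groups.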

How the data were processed

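RNA of 9 AML12 samples was sequenced, 3 a group, grouped by the labels' titles. The authors deposited 3 tables, each for 2 of the groups. They hold raw read counts of RefSeq transcripts beside the authors' log2 fold changes and unadjusted p-values. The deposited log2 and p-value columns were used only for the count of transcripts given below. Per the submitters' processing notes, reads went through bcl2fastq, HISAT2 2.2.5 and HTSeq 0.11.2. Those notes list a human build for what are mouse transcripts, and coordinates are therefore left out. The sources used here do not state the annotation release, counting options or use of strand.

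Listed transcripts had mean counts of at least 56.8 for PA/OA and control, 5.17 for Ang(1-7) and PA/OA and 59.5 for Ang(1-7) and control, so members had already passed a minimum. Counts were summed per symbol; the 90 members had 107 transcripts, 78 members had 1, and 16 had predicted ones only. The same transcripts of a member were listed in all tables for 56 members, so levels can differ between tables. Counts of a given sample were identical wherever it was listed. Levels are CPM scaled by TMM (trimmed mean of M values), except sums of markers. They are not divided by length and are not compared between genes.

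Each table was tested with edgeR 4.0.16 in R 4.3.3 (TMM, filterByExpr, quasi-likelihood F test), adjusted by Benjamini-Hochberg over all 6213, 9261 and 6134 genes tested, threshold 0.05. All members passed the filter. Intervals are 95% t intervals of the model. The procedure was tested on simulated data with the same spread for each pair of groups and no outlying library. That test therefore does not cover a library such as Ang(1-7) 2. In the measured counts the biological coefficient of variation was 22.4%, 44.3% and 30.7%. Alternatives were the replicate number as a block, RLE size factors, no filter, DESeq2 1.42.0, curated transcripts only, all 9 samples in 1 fit (6674 transcripts, 86 members), each library left out, and Ang(1-7) 2 and 3 left out. Deviations of same-numbered libraries correlated at -0.04 to 0.03 across genes, and those of other library pairs at -0.05 to 0.07. The labels state no pairing by number, and correlations from 3 libraries a group cannot settle whether same-numbered samples were handled together.

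Named genes were the called members, the 3 of lowest p where fewer were called, the 2 with the highest counts of each class, and members of a list of well known carriers (21 of 34 were in the table), 37 in all. The members and lists were chosen with earlier results of these data known. A gene of each of 2 comparison lists is not reported here and was left out of their counts. In the authors' deposited tables, 22 of 107, 4 of 150 and 17 of 101 member transcripts had an unadjusted p-value under 0.05. That is 20.6%, 2.67% and 16.8%, against 23.3%, 6.71% and 21.0% of all listed transcripts.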

Additional observations from a re-analysis of the deposited data

Results flagged for a closer look

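Solute carrier genes that are not members, because they are not listed in the table of PA/OA and control, were read in the table of Ang(1-7) and PA/OA. Of 77 such symbols, 5 of those reported here had counts in Ang(1-7) 2 and 3 and 0 in the other 4 libraries. Those 4 are all PA/OA libraries and Ang(1-7) 1, where a count of 0 allows up to 3 counts a library. Listed transcripts had a mean count of at least 5.17, so genes at 0 in those 4 were listed only through Ang(1-7) 2 and 3. Of 10259 listed genes, 368 to 682 were at 0 in each of those 4 libraries. The share of all genes with the whole pattern was not counted. Slc6a11, which takes up GABA, had 92 counts in Ang(1-7) 2 and 43 in Ang(1-7) 3. The glutamate carriers Slc1a3 and Slc1a1 had 72 and 48 counts in Ang(1-7) 2 and 43 and 7 in Ang(1-7) 3. Slc9a7, a sodium and proton exchanger, had 94 and 37 counts, and Slc2a13, a myo-inositol carrier, had 18 and 16. Of 12 carriers known from nervous tissue 3 were listed, with summed levels of 6.41 CPM in Ang(1-7) 2, 3.48 in Ang(1-7) 3 and 0.0808 to 0.917 in the other 4 libraries. The higher sums came from Slc1a3 and Slc6a11. Slc1a2, the third, had 18, 23 and 6 counts in the PA/OA libraries and 2, 20 and 5 in the Ang(1-7) libraries. Ang(1-7) 2 and 3 also held all 11 listed nervous system markers, of 20 on the list. Markers at 0 in the other 4 libraries were likewise listed only through these libraries. The difference was not tested and its cause was not tested.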

How the results depend on the processing

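For PA/OA against control, Slc20a1 and Slc25a4 were called with RLE size factors, with no filter and with the replicate block. With the block, which the labels do not ask for, the log2 changes were 1.13 for Slc20a1 and -0.21 for Slc25a4. With curated transcripts only, 2 members were called, Slc25a4 lower and Slc35e3 higher, and Slc20a1 had no value. DESeq2 called 4 (3 higher, 1 lower) and the fit of all 9 samples 0. With 1 library left out the count was 0 to 1, with 0 higher and 0 to 1 lower. For Ang(1-7) against PA/OA, each alternative called 0 members, the replicate block included. For Ang(1-7) against control the count was 0 to 5 with 1 library left out (0 to 2 higher, 0 to 3 lower). The 5 calls came only without Ang(1-7) 2. The count was 0 under the other alternatives that keep more than 1 Ang(1-7) library, the replicate block included. Of 734 gene results times alternatives, 676 kept their direction and side of the threshold, 12 lost a call, 9 gained one and 37 changed sign, none of a called change.

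Sign changes of PA/OA against control came with 1 library left out, as log2 ranges: Slc1a5 -0.10 to 0.20, Slc25a1 -0.073 to 0.080, Slc27a4 -0.018 to 0.093, Slc35e4 -0.055 to 0.048, Slc35g1 -0.14 to 0.010, Slc39a6 -0.035 to 0.057, Slc39a7 -0.24 to 0.021, Slc41a1 -0.056 to 0.24, Slc50a1 -0.43 to 0.11, Slc5a3 -0.13 to 0.24, Slc7a1 -0.33 to 0.29, Slc7a11 -0.43 to 0.49 and Slc7a5 -0.026 to 0.125. For Ang(1-7) against PA/OA these were Slc25a5 -0.25 to 0.031 and Slc38a2 -0.011 to 0.45, and without Ang(1-7) 2 and 3 Slc25a43 was at -0.093 and Slc38a2 at -0.049. The cause was not tested. Counts limit what can be seen: intervals of members under 200 counts are wide.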
